A study of Mus musculus with 8 samples.

Results

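The genes described here are 9 transcription and splicing factors of epithelial cells: the CP2 factor Tfcp2l1, the Ets factors Elf3, Elf5 and Ehf, the grainyhead-like factors Grhl1, Grhl2 and Grhl3, and the splicing regulators Esrp1 and Esrp2. They were chosen by name, with earlier results of these data known, and their probes were found through the RefSeq accession that the array gives each probe. Counts of members set beside shares of all probes are therefore a description and no test of enrichment. By this rule 8 of the 9 genes had probes, 15 in all, of 41174 non-control probes that carried 17305 named genes. The level of Grhl3 was not analysed here, and only its promoter was read. All 15 probes passed the filter on dim spots.

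RNA came from whole kidneys of mouse embryos at stage E13.5, of a mixed CD1 and C57BL/6 background. Kidneys labelled mutant were without 2 histone deacetylases, HDAC1 and HDAC2, in their ureteric buds (UB HDAC1,2-/-), and kidneys labelled wild type served as controls. There were 4 biological replicates, each a mutant and a wild type RNA hybridised together on 2 two-colour Agilent arrays once in each dye orientation, on 8 arrays and 2 slides in all. The labels do not name the driver of the deletion or the number of embryos behind an RNA, so the p-values measure the spread between these RNAs.

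Grainyhead-like factors bind the regulatory DNA of junction and keratin genes in epithelia, and Ets factors of the Elf3, Elf5 and Ehf branch are typical of epithelia that line ducts and glands. Tfcp2l1 is expressed in the stalk of the ureteric bud, the epithelium that gives rise to the collecting ducts, and in mice it is needed for the mixture of principal and intercalated cells in the collecting duct. Esrp1 and Esrp2 bind transcripts such as that of the growth factor receptor Fgfr2 and direct their splicing towards the epithelial form.

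The labels were checked on Hdac2, since Hdac1 was not analysed here. The log2 ratio of Hdac2 in mutant-labelled RNA over wild type-labelled RNA had the values 0.60, 0.60, 0.74 and -0.61 over the 4 replicates, so 3 of the 4 pairs had more Hdac2 signal in mutant-labelled RNA. A probe outside the deleted part would not register the deletion, and the position of this probe was not analysed here. The deletion was in the ureteric bud while the RNA came from whole kidneys, so Hdac2 RNA of other cells is in the signal. For these reasons Hdac2 cannot settle whether the labels are right. The authors' deposited table gives the opposite sign: of 296 entries that matched 1 tested probe, 295 had the opposite sign to the ratio set by the dye labels. That table does not state which RNA is on top of its ratio. Every direction below follows the dye labels. If the RNAs were exchanged relative to these labels, every direction and fold below would turn round, and this was not tested. Replicate 2 stood apart from the other replicates on 9.49% of the tested probes, against 0.357% to 0.921% for each other replicate, and the members and lists are given with and without it. The replicate ratios correlated at -0.149 to 0.412 across probes.

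Of the 15 member probes, 13 had a mean log2 ratio above 0 and 2 below it, where 53.9% of all 39522 tested probes lay above 0. The median was 0.26 for the members and 0.02 for all tested probes. None passed limma's test at an adjusted p of 0.05, which 7 of all tested probes passed (0.0177%), with 6 higher and 1 lower in mutant-labelled RNA. At an unadjusted p under 0.05, 5 of the 15 were higher and none lower, where 3.15% of all tested probes were higher. These 5 probes stand for 5 genes, Tfcp2l1, Elf5, Ehf, Grhl2 and Elf3, and each was at least 1.4-fold higher by the scanner's ratio. With normexp background correction and loess normalization in its place, 3 of the 5 were, and the folds were 1.94 for Tfcp2l1, 1.77 for Elf5, 1.41 for Ehf, 1.34 for Grhl2 and 1.25 for Elf3. Without replicate 2, 12 of the 15 lay above 0, where 57.4% of all tested probes did, and the median was 0.23. In that setting 8 member probes were higher at an unadjusted p under 0.05, where 3.82% of all tested probes were, and 1 passed the adjusted threshold. Probes of a gene share its RNA and are not independent of one another. In whole kidneys, more cells of a type and more RNA per cell cannot be told apart.

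**Figure D1:**
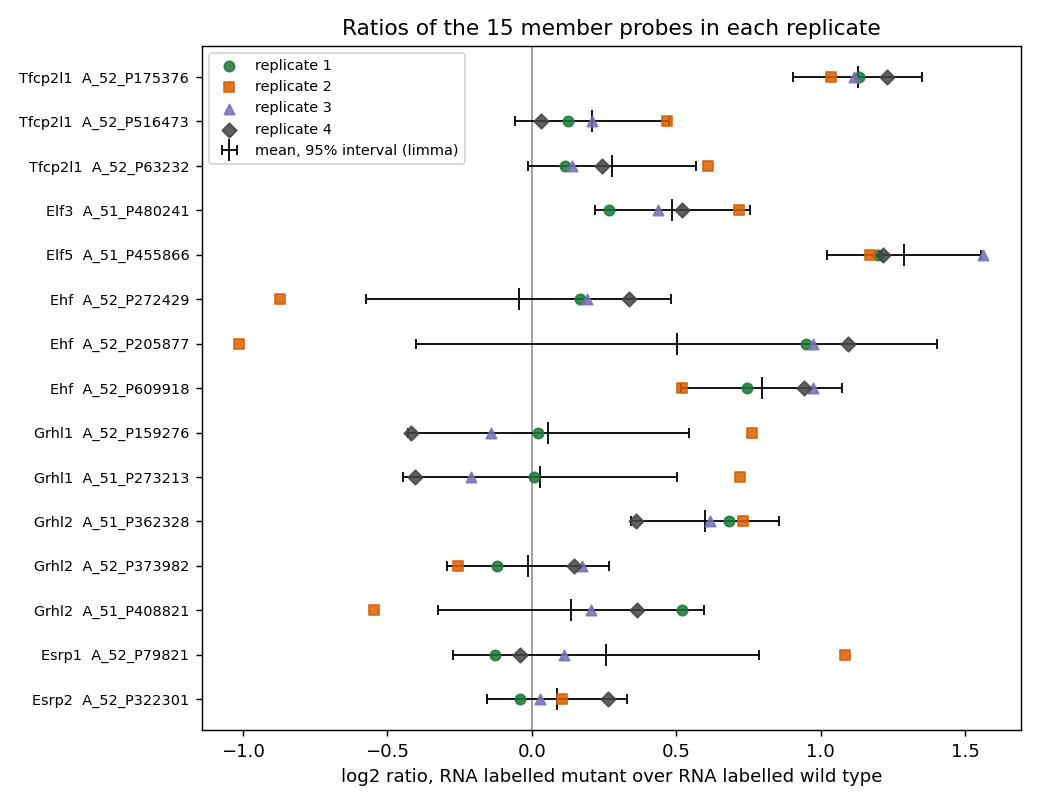
Log2 ratio of mutant-labelled RNA over wild type-labelled RNA (horizontal axis) for each of the 15 member probes (rows). Symbols are the 4 replicates, each the mean of both dye orientations, and the vertical tick and bar are the mean and its 95% interval from limma. The first Tfcp2l1 probe and the Elf5 probe lie above 1 in every replicate. Replicate 2 lies apart from the others for Ehf A_52_P272429 and A_52_P205877. It is the highest for the Grhl1 and Esrp1 probes and the lowest for Grhl2 A_51_P408821.

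Tfcp2l1 had the probe with the smallest spread between replicates among the members. Its probe A_52_P175376 had signals of 2769.6, 2903, 3061 and 2798 in mutant-labelled RNA of replicates 1 to 4, against 1263, 1417, 1412 and 1195 in wild type-labelled RNA (arbitrary units). All signals given here were rebuilt from the background-subtracted, dye-normalized processed signals. The mean log2 signal of both channels was quantile-normalized across arrays, each array's ratio was kept, and both dye orientations were averaged. All mutant-labelled RNAs lay above all wild type-labelled RNAs. The log2 ratio was 1.13 ± 0.08 (SD, n = 4; 2.19-fold; 95% interval 0.90 to 1.35), with an adjusted p of 0.0578 in limma. It ranked 12 of 39522 by p. The 8 arrays gave ratios of 1.02 to 1.24, the mean was 1.13 in each dye orientation, and the slides gave 1.08 and 1.17. When the 8 arrays were fitted with the replicate as a block, the adjusted p was 7.12e-04. Without replicate 2 the ratio was 1.16 with an adjusted p of 0.0447 in limma. Without replicate 1, 3 or 4 the ratio was 1.126, 1.132 or 1.095, with an adjusted p of 0.239, 0.727 or 0.681 in limma. With the slide as a block the adjusted p was 0.121.

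The other 2 Tfcp2l1 probes gave smaller ratios. A_52_P516473 had ratios of 0.13, 0.47, 0.21 and 0.03 (0.21 ± 0.19, SD, n = 4, adjusted p = 0.758 in limma), and A_52_P63232 had 0.11, 0.61, 0.14 and 0.24 (0.28 ± 0.23, adjusted p = 0.758). Both were above 0 in 4 of 4 replicates, but their groups overlapped in signal. Without replicate 2 these ratios were 0.12 and 0.17. The ratio of A_52_P175376 exceeded that of A_52_P516473 by 0.92 (95% interval 0.50 to 1.34) and that of A_52_P63232 by 0.85 (0.40 to 1.3), each in 4 of 4 replicates. An exact sign-flip test of such a difference cannot go below p = 0.13 with 4 replicates. The 3 probes carry the same RefSeq accession, and where each lies on the transcript was not analysed here. A further probe, A_52_P20867, which the array assigns to the transcript AF311309 and the authors' deposited table names TFCP2L1, falls outside the rule. It had ratios of 0.34, 0.76, 0.75 and 0.81, and its groups did not overlap.

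The regions before the start sites of Tfcp2l1, Elf3 and Elf5 are shown because these genes are 3 of the 5 with the smallest p and the table of promoters held them. Each line gives the 250 bases before the start, 5′ to 3′ on the gene's strand, from RefSeq on GRCm38.p6, with the E-box hexamer CAGGTG, read on either strand, in capitals. For Elf5, the first of 2 listed start sites is shown.
Tfcp2l1 chr1:118627695-118627944 (+ strand): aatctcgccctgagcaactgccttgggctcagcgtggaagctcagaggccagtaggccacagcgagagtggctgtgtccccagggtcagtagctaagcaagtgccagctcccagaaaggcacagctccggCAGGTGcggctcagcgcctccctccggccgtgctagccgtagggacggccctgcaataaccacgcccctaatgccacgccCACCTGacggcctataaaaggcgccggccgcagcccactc
Elf3 chr1:135258473-135258722 (- strand): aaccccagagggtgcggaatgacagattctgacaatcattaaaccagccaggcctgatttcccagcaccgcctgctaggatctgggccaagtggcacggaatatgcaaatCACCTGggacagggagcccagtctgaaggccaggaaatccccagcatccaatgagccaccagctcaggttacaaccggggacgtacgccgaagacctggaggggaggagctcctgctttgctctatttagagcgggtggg
Elf5 chr2:103411848-103412097 (+ strand): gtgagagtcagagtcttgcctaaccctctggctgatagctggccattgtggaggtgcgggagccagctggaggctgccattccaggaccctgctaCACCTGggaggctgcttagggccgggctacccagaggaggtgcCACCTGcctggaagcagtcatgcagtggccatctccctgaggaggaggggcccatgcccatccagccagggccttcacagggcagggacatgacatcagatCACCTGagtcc
E-boxes of this form are bound by the Snail and Zeb families of repressors of epithelial genes, among other factors. The hexamer occurred at bases -120 and -40 for Tfcp2l1, at -140 for Elf3, and at -155, -112 and -11 for Elf5. Of the 9 genes, 5 matched an entry, with 7 start sites, while Ehf and Grhl2 matched none. Of these 7 windows of 250 bases before to 50 after the start, 5 held CAGGTG, against 20.2% of 32851 promoters. These 5 windows belong to 4 genes, with both Elf5 windows and that of Grhl3, whose level was not analysed here. Such counts are a description and no test. CAGGTA occurred in 2 of the 7, against 12% of all. The grainyhead motif AACCGGTT (0.146% of all), the Ets motif CCGGAAG (8.86% of all) and the Tfcp2l1 motif, a pair of CCAG separated by 6 bases (3.44% of all), occurred in none of the 7. A match describes letters in the window and does not show binding.

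Elf5, known for its part in mammary alveolar and trophoblast development, had the largest ratio among the members by the dye labels. Its 1 probe had signals of 468, 431, 635 and 500.4 in mutant-labelled RNA, against 204, 191, 215 and 215 in wild type-labelled RNA. The groups did not overlap, and replicate 3 of mutant-labelled RNA was the highest. The replicate ratios were 1.20, 1.17, 1.56 and 1.22, with a mean of 1.29 ± 0.18 (SD, n = 4; 2.44-fold; 95% interval 1.02 to 1.55) and an adjusted p of 0.0639 in limma. The slides gave 1.18 and 1.39, and without replicate 2 the ratio was 1.32 (adjusted p = 0.0597 in limma). With the replicate as a block the adjusted p was 0.00146, and with the slide as a block 0.121. The mean was 1.1 with the mutant in Cy5 and 1.48 with the mutant in Cy3 (adjusted p of the dye term 0.141 in limma). With normexp and loess the Elf5 ratio was 0.83.

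Ehf, an Ets factor of airway, skin and gut epithelia, gave probes that disagreed. A_52_P609918 had signals of 235, 225, 334 and 309 in mutant-labelled RNA, against 140.5, 157, 169.9 and 161 in wild type-labelled RNA. These groups did not overlap, and the ratio was 0.80 ± 0.21 (SD, n = 4; 1.74-fold), with an adjusted p of 0.194 in limma. It was 0.63 on slide 1, 0.96 on slide 2 and 0.89 without replicate 2, and 0.49 with normexp and loess. For A_52_P205877 the ratios were 0.95, -1.01, 0.97 and 1.1, and its wild type-labelled RNA of replicate 2 had a signal of 545, where the other 3 had 124 to 175. The brightest probe, A_52_P272429, had ratios of 0.17, -0.87, 0.19 and 0.33, again with a high wild type-labelled RNA in replicate 2 (857, against 288 to 367 in the others). Without replicate 2, these means were 1.01 and 0.23. The ratio of A_52_P272429 was below that of A_52_P609918 in 4 of 4 replicates, by a difference of -0.84 (95% interval -1.44 to -0.24). Which of the probes reads Ehf best was not tested.

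Elf3, an Ets factor of differentiating gut and airway epithelium, had signals of 340.5, 364, 439.5 and 493 in mutant-labelled RNA, against 283, 221, 325 and 344 in wild type-labelled RNA. Within every replicate the mutant-labelled RNA was the higher, while the groups overlapped. The ratio was 0.49 ± 0.19 (SD, n = 4; 1.4-fold; 0.49 and 0.48 on the slides), with an adjusted p of 0.507 in limma. Without replicate 2 it was 0.41.

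**Figure D2:**
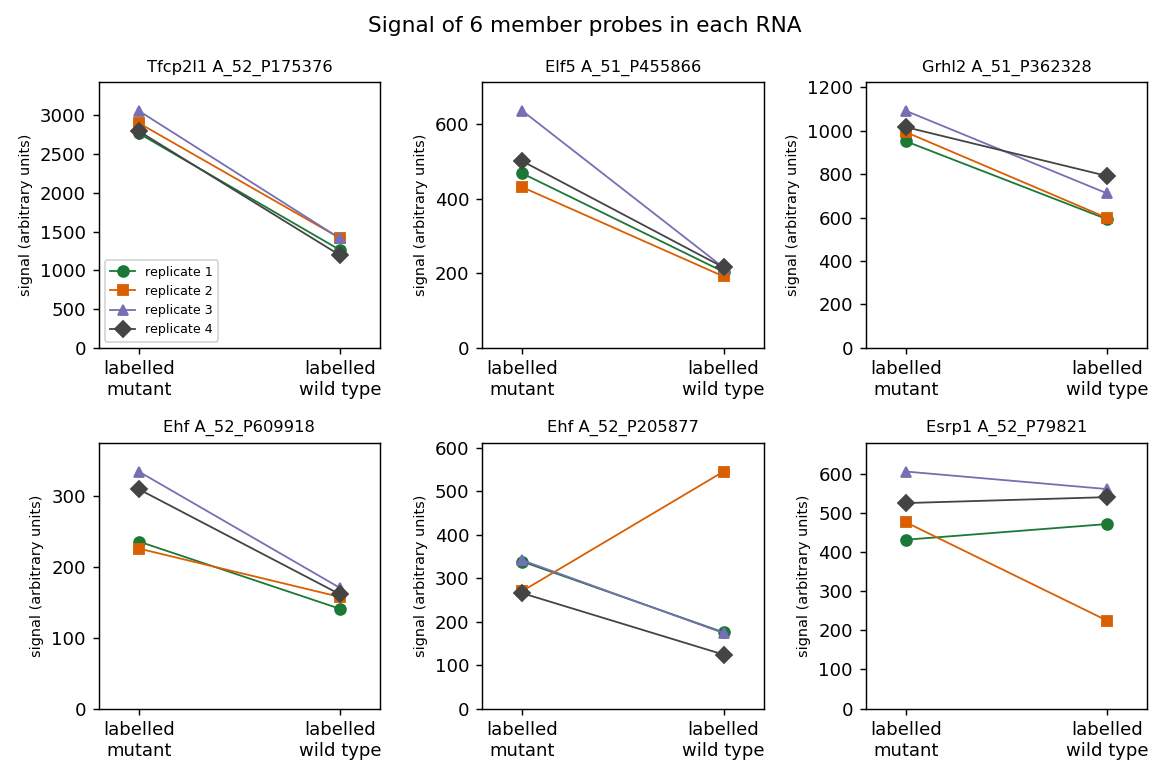
Processed signal after quantile normalization across arrays (vertical axis, arbitrary units, from 0) of 6 member probes in mutant-labelled RNA (left) and wild type-labelled RNA (right). Lines join the RNAs of a replicate, each point the mean of both dye orientations. Tfcp2l1, Elf5, Grhl2 and Ehf A_52_P609918 separate the groups, while the wild type-labelled RNA of replicate 2 is high for the other Ehf probe and low for Esrp1.

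Grhl2, the grainyhead-like factor of simple epithelia, is expressed in the ureteric bud and collecting duct. Its brightest probe, A_51_P362328, had signals of 951, 993, 1091 and 1016 in mutant-labelled RNA, against 592, 598, 711 and 791 in wild type-labelled RNA. The groups did not overlap, and replicate 4 had the smallest ratio. The ratios of 0.68, 0.73, 0.62 and 0.36 averaged 0.60 ± 0.16 (SD, n = 4; 1.51-fold; 0.71 and 0.49 on the slides), with an adjusted p of 0.323 in limma. Without replicate 2 the mean was 0.55. The mean was 0.38 with the mutant in Cy5 and 0.82 with the mutant in Cy3 (adjusted p of the dye term 0.119 in limma). The other probes, A_52_P373982 and A_51_P408821, were dim, well above background on 7 or 8 arrays per channel, and had ratios of -0.01 ± 0.21 and 0.14 ± 0.47 (SD, n = 4), or 0.067 and 0.36 without replicate 2.

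Grhl1, which acts in the epidermis, had ratios of 0.02, 0.76, -0.14 and -0.42 on A_52_P159276 and of 0.01, 0.72, -0.21 and -0.40 on A_51_P273213. These probes stayed within 0.03 of each other on average (95% interval of the difference -0.03 to 0.09). The positive ratio of replicate 2 went with a low wild type-labelled RNA, at 151 on A_52_P159276, where the others had 219 to 324. Over the 4 replicates the ratios were 0.06 ± 0.50 and 0.03 ± 0.49 (SD, n = 4), and without replicate 2 they were -0.18 and -0.20, so neither probe has a settled direction.

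Esrp1 had signals of 431, 476, 605 and 525 in mutant-labelled RNA, against 471, 225, 560.4 and 539.8 in wild type-labelled RNA. Replicate 2 of wild type-labelled RNA was the lowest, and the groups overlapped. The ratio was 0.26 ± 0.56 (SD, n = 4; adjusted p = 0.758 in limma) and -0.02 without replicate 2. Esrp2 had ratios of -0.04, 0.10, 0.03 and 0.26 (0.09 ± 0.13, SD, n = 4; 95% interval -0.15 to 0.33; adjusted p = 0.76 in limma), and 0.0826 without replicate 2. The splicing regulators thus had ratios whose intervals included 0, and their adjusted p does not show that the RNAs were equal.

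**Figure D3:**
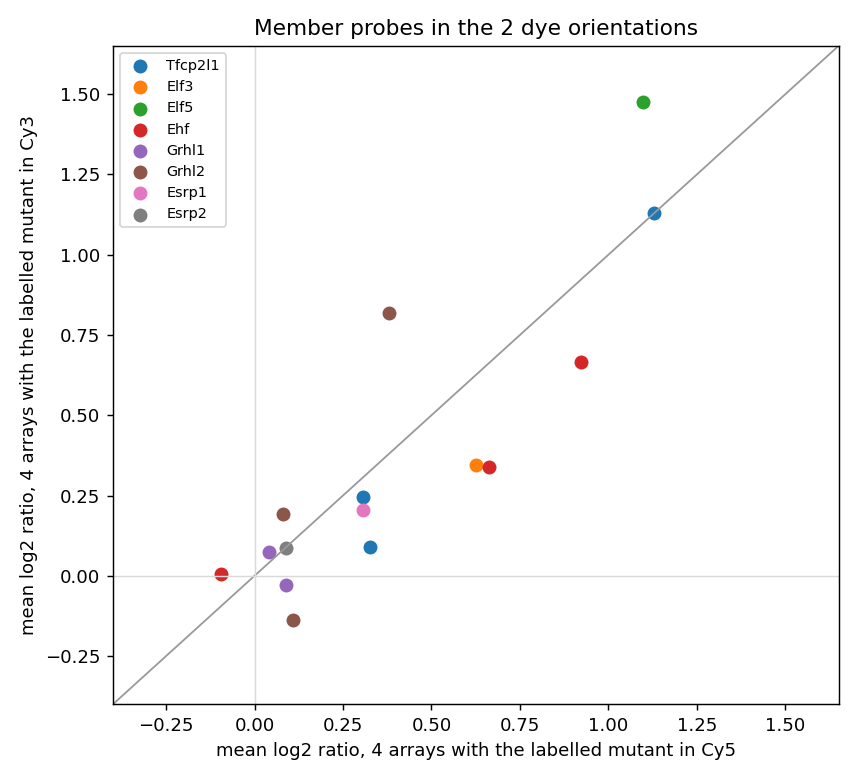
Mean log2 ratio of each member probe over the arrays that carried the mutant in Cy5 (horizontal axis) and over those that carried it in Cy3 (vertical axis); the line marks equality and colours mark genes. The first Tfcp2l1 probe lies on the line at 1.13, while Elf5 and the brightest Grhl2 probe lie above it.

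Across the members, 7 of the 15 probes had ratios above 0 in 4 of 4 replicates, where 10.7% of all tested probes did. In 4 of the 15, every signal in mutant-labelled RNA exceeded every signal in wild type-labelled RNA, where 1.41% of all tested probes did. These were probes of Tfcp2l1, Elf5, Ehf and Grhl2. The authors' deposited table holds 496 entries, by its name chosen on p and a fold of 1.4, from these same arrays of 41174 non-control probes. It includes 5 of the member genes, with ratios of -1.29 for Elf5, -1.13 for Tfcp2l1, -0.79 for Ehf, -0.60 for Grhl2 and -0.49 for Elf3. Each is the size of the ratio here with the sign turned. Where a gene had several probes, the one nearest the turned entry was compared, so neither the entries nor their sizes are a separate result.

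By Pearson's r of log2 signal over the 8 RNAs, the genes most like Tfcp2l1 among 14927 were Krt8 (0.995), Mia (0.990), Psph (0.988), Cdh16 (0.982) and Tm4sf20 (0.977). The RNAs come in pairs from the same arrays and fall into the 2 genotypes, so such values reflect the difference between the genotypes and carry no test.

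Genes known from grainyhead biology and epithelial junctions were listed alongside. In this and every list below, a gene was counted by its brightest probe, while the shares beside the counts are over all tested probes. Other probes of a gene had lower ratios for some genes and higher ones for others, in places on the other side of 0. Of 26 tested, 23 had a ratio above 0, with a median of 0.40 (0.38 without replicate 2), and 16 had an unadjusted p under 0.05, all higher, with and without replicate 2. Over all tested probes 53.9% lay above 0 and 3.15% were higher at that p, or 57.4% and 3.82% without replicate 2. None of the list passed the adjusted threshold. The keratins of simple epithelia led the list: Krt18 had a ratio of 1.14 ± 0.20 (adjusted p = 0.0987), Krt8 0.96 ± 0.13 (0.109) and Krt7 1.23 ± 0.30 (0.119; limma, SD, n = 4). Ap1m2, a sorting adaptor of epithelia, and Lsr, a tricellular junction protein, had 0.07 and 0.00.

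Genes of collecting duct differentiation were listed by name as downstream of Tfcp2l1, and whether they depend on Tfcp2l1 here was not tested. Of 15 tested genes of this list, 11 lay above 0, with a median of 0.17, and 2 had an unadjusted p under 0.05. Without replicate 2, 13 lay above 0, with a median of 0.0928, and 4 had an unadjusted p under 0.05. All of these were higher. Over all tested probes, 53.9% lay above 0 and 3.15% were higher at that p, or 57.4% and 3.82% without replicate 2. Scnn1g, a subunit of the epithelial sodium channel, had 0.68 ± 0.23 (SD, n = 4, adjusted p = 0.324 in limma), and the water channel Aqp3 had 0.36. Slc4a1, the anion exchanger of intercalated cells and red cells, had -0.02, and Car2, a carbonic anhydrase, 0.01.

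The 9 transcripts that Esrp proteins splice had a median of 0.06, with none at an unadjusted p under 0.05. Without replicate 2 the median was 0.0259, with 1 higher and 1 lower at that p. An array ratio does not report the form spliced. Of 17 other splicing regulators, 2 had an unadjusted p under 0.05, both higher, with Rbm47 at 0.46 ± 0.17 (SD, n = 4). Their median was 0.15, or 0.0118 without replicate 2, where 2 were higher and 2 lower. The 22 other Ets factors had a median of 0.06, or 6.4e-04 without replicate 2, and none had an unadjusted p under 0.05 either way. Among the other CP2 factors, Tfcp2 had ratios of 0.43, -1.02, 0.20 and 0.03, and Ubp1 a mean of 0.02. Mesenchymal factors opposed to the epithelial state had a median of -0.16 over 13 genes, or -0.0822 without replicate 2. Their median was 0.07, 0.05, -0.18 and -0.20 in replicates 1 to 4, so the replicates did not share a sign. In this list Prrx1 had -0.37 ± 0.06 and Twist2 0.35 ± 0.09 (SD, n = 4), both at an unadjusted p under 0.05. Without replicate 2, 1 gene of the list was higher and 3 were lower at that p. For every list of this paragraph, the shares over all tested probes at that p were 3.15% higher and 2.86% lower. Without replicate 2 these shares were 3.82% and 4.09%.

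**Figure D4:**
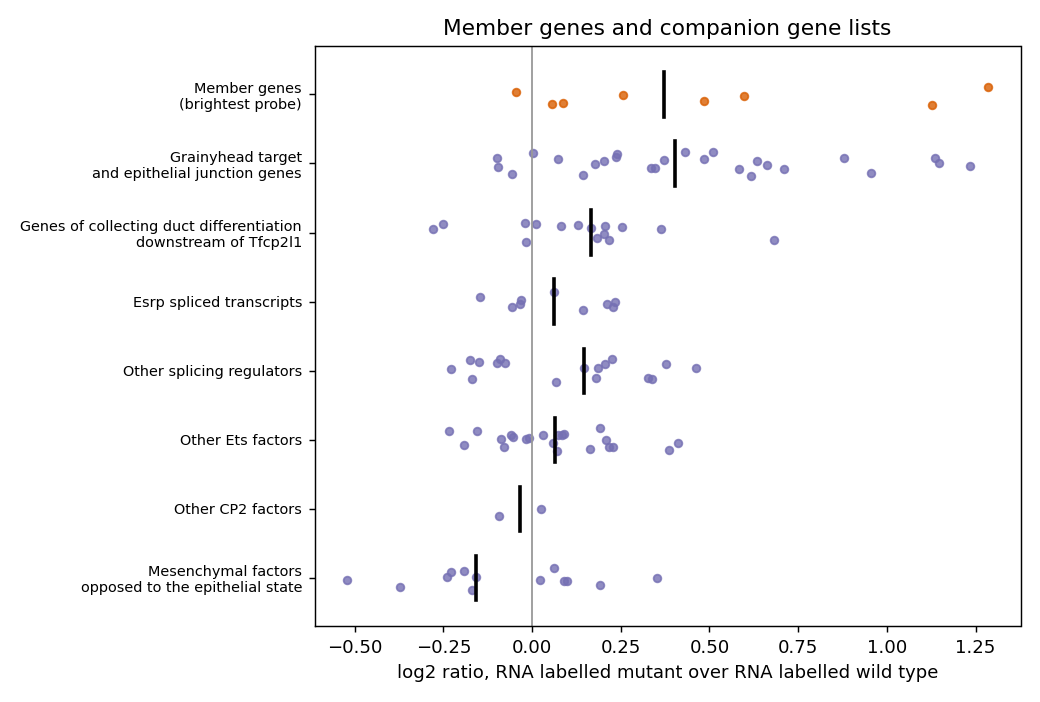
Log2 ratio of mutant-labelled RNA over wild type-labelled RNA (horizontal axis) for the member genes and the companion lists (rows). Points are genes, each by its brightest probe, spread vertically for visibility, and black bars are medians. The median is 0.37 for the members, 0.40 for the grainyhead and junction genes and -0.16 for the mesenchymal factors (-0.0822 without replicate 2).

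Of 13 markers of the ureteric bud, 11 lay above 0, with a median of 0.37, and 8 had an unadjusted p under 0.05, all higher. Without replicate 2, 13 lay above 0, with a median of 0.34, and 10 were higher at that p. The grainyhead list holds 4 of these markers too, Krt18, Krt8, Epcam and Cdh1, and all 4 are among the 8. Over all tested probes, 53.9% lay above 0 and 3.15% were higher at that p, or 57.4% and 3.82% without replicate 2. The summed signal of the 13 markers was 90045 to 109153 in mutant-labelled RNA, against 58934 to 67011 in wild type-labelled RNA. The calcium-binding protein Calb1 had 0.78 ± 0.20, and the receptor Ret had -0.05 ± 0.28 (SD, n = 4). The ratios of Ret were 0.07, -0.46, 0.11 and 0.08 in replicates 1 to 4, so only replicate 2 lay below 0. The medians of the other cell type lists lay between -0.29 for macrophages, of which 6 of 6 genes were below 0, and 0.09 for adrenal and gonad. Without replicate 2 they lay between -0.26 and 0.11. Only genes with a probe past the filter on dim spots were counted, so none could be below background on every array. The part of these cell types in the members' ratios was not tested.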

How the data were processed

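RNA of 4 replicates was measured on 8 two-colour arrays, grouped by the dye labels. Per the file headers, the authors used Agilent Feature Extraction 10.5.1.1. Deposited intensity columns hold spot brightness and the background-subtracted, dye-normalized processed signal. The deposited log10 ratio is red over green, per the file headers, and was turned into log2 of mutant over wild type. The deposited flags (well above background, saturated, outlier) are 0 or 1. In the authors' deposited table stand log2 ratios of 496 entries.

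Outlier and control spots were left out, spots of a probe averaged, and the 2 arrays of a replicate averaged. Same-numbered arrays hold the same RNAs per the labels, and their ratios correlated at 0.216 to 0.584. A probe was kept if 1 channel or both lay well above background on 4 or more of 8 arrays. Each array had 45018 spots, of which 43379 were not controls. Of these, 82.1% to 95.9% exceeded background clearly in mutant-labelled RNA and 79.2% to 97.1% in wild type-labelled RNA, and none was saturated. Precision is limited by the number of RNA pairs, which is 4. The scanner software set 0.938% to 8.54% of ratios per array to 0.

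Replicate ratios were tested against 0 with limma 3.58.1 in R 4.3.3 (lmFit, eBayes, two-sided, Benjamini-Hochberg over 39522 probes), after testing on simulated data. Exact sign-flip tests served for probe differences. Alternatives were normexp (offset 50) with loess, centring, filters, the replicate or slide as a block, single dye orientations, array weights and leaving out replicates. RefSeq symbols matched 25097 of 41174 probes. Each list gene was counted by its brightest tested probe. From each list, the 3 genes of smallest p and the 2 of largest p could be named. The members and lists were chosen with earlier results of these data known. Array and promoter builds differ (mm9 and GRCm38.p6), so no probe positions are given.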

Additional observations from a re-analysis of the deposited data

Results flagged for a closer look

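The 15 member probes and the Hdac2 probe were examined. In 4 of them, 1 replicate lay apart from the other 3 by Dixon's criterion, which chance meets in about 1 in 20 groups. Over all tested probes, replicate 2 lay apart on 9.49%, and each other replicate on 0.357% to 0.921%. The Elf5 ratio of replicate 3 was 1.56, and the mean of the others was 1.19. For Ehf, replicate 2 had -0.87 on A_52_P272429, where the others averaged 0.23, and -1.01 on A_52_P205877, where the others averaged 1.01. Replicate 4 of Hdac2 had -0.61, and the others averaged 0.65.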

How the results depend on the processing

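The ratios of Tfcp2l1 A_52_P175376, Elf5, Ehf A_52_P609918, Grhl2 A_51_P362328, Elf3, Esrp2 and the other Tfcp2l1 probes kept their sign under every alternative tried, and the median of the members lay between 0.11 and 0.37. The number of calls did not hold. Of all probes, 7 passed; the count was 1 with normexp and loess, 3 with median centring, 2 with no filter, 13 with the strict filter, 98 with the replicate block, 1 with the mutant in Cy5 only, 36 with it in Cy3 only, 456 with array weights, 1 with the slide as a block, 0 within slide 1, 452 within slide 2, 3 with 1 probe per gene, and 0 to 10 with a replicate left out. Of the member probes, 0 passed, against 2 with the strict filter, 2 with the replicate block and 2 with the mutant in Cy3 only (each time Tfcp2l1 and Elf5), 6 with array weights, 4 within slide 2, and 0 to 1 with a replicate left out. The 5 member probes at an unadjusted p under 0.05 became 9 with array weights, 8 within slide 2, 4 within slide 1, 4 with 1 probe per gene, and 5 to 8 with a replicate left out. The cause was not tested. The weight of replicate 2 was 0.18 and that of replicate 3 was 4.07.

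The signs of 7 probes turned. Ehf A_52_P205877 had -0.0323 within slide 1. Ehf A_52_P272429 had 0.0054 with the mutant in Cy3 only, 0.18 with array weights, 0.26 within slide 2, and -0.17 to 0.23 with a replicate left out. Esrp1 had -0.0194 to 0.38 with a replicate left out. Grhl1 A_51_P273213 had -0.0537 with normexp and loess, -0.0079 with centring, -0.0302 with the mutant in Cy3 only, -0.18 with weights, -0.31 within slide 2, and -0.20 to 0.17 with a replicate left out. Grhl1 A_52_P159276 had -0.0459 with normexp and loess, -0.13 with weights, -0.28 within slide 2, and -0.18 to 0.22 with a replicate left out. Grhl2 A_51_P408821 had -0.0235 with normexp and loess and -0.0131 within slide 1. Grhl2 A_52_P373982 had 0.11 with the mutant in Cy5 only, 0.10 with weights, 0.16 within slide 2, and -0.0757 to 0.067 with a replicate left out. Of the 15 member probes, 13 passed the strict filter on signal over background, and these 2 Grhl2 probes did not.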
